A study of Mus musculus with 12 samples.

Results

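The sites described here are cytosines of mouse polyadenylated RNA that had at least 20 sequencing reads in exactly 1 of 6 tissues and fewer than 20, or none listed, in the other 5. They were chosen by their read coverage alone and number 241 of the 2498 cytosines in the deposited table, or 9.65%, and lie in 215 of its 1964 genes. RNA was treated with bisulfite, which turns unmodified cytosines into uracil while 5-methylcytosine (m5C) stays, so that the m5C level is the share of reads that still show C. Every library came from wild-type C57BL/6 animals 8 to 10 weeks old. Heart and liver each had 1 female library, muscle had 4 female libraries, and lung, small intestine and spleen each had 1 female and 1 male library. The table holds a single set of columns per tissue, so values carry no error between animals, and tissue cannot be told apart from sex or library number.

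Methylation of cytosine in RNA is laid down by enzymes of the NSUN family and by DNMT2. NSUN2 is known for sites in G-rich structured stretches and NSUN6 for sites within a CTCCA motif. A site can be measured only where its transcript is present and read deeply enough. Less RNA per cell and fewer cells of a type cannot be told apart in such bulk tissue.

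Sequence around the site could be read for 18 of the 241 sites, those that fall inside the RefSeq windows around annotated gene starts on GRCm38.p6, the assembly called mm10. The window can be that of another gene than the one named, as with Gm15998 for Efna3. The base at the site was C in 18 of 18. The first set is shown because 5 alpha-defensin genes of small intestine carry almost the same 21 bases, with the site as the first letter of CTCCA. Capitals mark the 5 letters from the site onward. They run 5′ to 3′ on the plus strand of mouse chromosome 8, from chr8:21025559-21025579 for Defa21 to chr8:21582998-21583018 for Defa28.
Defa21: ctcaccaatcCTCCAggtgac
Defa23: ctcaccaatcCTCCAggtgac
Defa22: ctcaccaatcCTCCAggtgac
Defa28: ctcaccaatcCTCCAggtgac
Defa36: ctcaccaattCTCCAggtgac
The Defa36 run differs from that of Defa21 by C10T, counted from 1 at the 5′ end. Efna3, the gene of the membrane ligand ephrin-A3, has the same motif at its small intestine site on the minus strand at chr3:89316583-89316603, where 4.80% of 125 reads were unconverted and the authors made no call.
Efna3: ccagccaaggCTCCAagcgct
CTCCA starting at the site was present in 6 of the 18, against 0 of 68 sites covered in more tissues that also fall in such a window. It starts at 0.674% of all cytosines in these promoter windows over both strands. Since 5 of the 6 are copies within 1 gene family, they are not separate instances.

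A second set shows sites that are the first letter of CNGGG, where N is any base, with no overlap with CTCCA. There were 4 among the 18 sites (22.2%) and 9 among the 68 (13.2%), and 2.94% of all cytosines in the windows begin these letters. Adcy2, an adenylyl cyclase, was covered in muscle, as was Hoxd3os1, a non-coding RNA of the Hoxd cluster, while Iba57, an iron-sulfur assembly factor, and the kinase gene Akt1 were covered in heart. Their levels were 46.5% of 99 reads in Adcy2, 14.7% of 136 in Hoxd3os1, 11.4% of 35 in Iba57 and 8.82% of 34 in Akt1, the last not called by the authors. The windows read for Adcy2 and Hoxd3os1 are those of Gm35161 and Gm38462. Capitals mark the 5 letters.
Adcy2: gcgcccagccCGGGGctccga
Hoxd3os1: gctcggcgccCGGGGctcctt
Iba57: cgccgccgccCGGGGccgctg
Akt1: gggcgcggggCGGGGagaagg
The third set holds sites of high level with neither motif, capitals marking the site alone. Hebp1 encodes a heme-binding protein and was covered in liver at chr6:135197868-135197888. Hdlbp, which encodes the RNA-binding protein vigilin, was covered in heart at 2 cytosines 2 nt apart, at chr1:93478789-93478809 and chr1:93478791-93478811. All 3 lie on the minus strand, in start windows of other genes, Fam234b for Hebp1 and Septin2 for Hdlbp. The Hebp1 site lies 29663 nt outside the span of its gene.
Hebp1: gcctcagcagCcggtaaggaa
Hdlbp at 93478799: agcctcttctCctttaccaag
Hdlbp at 93478801: gtagcctcttCtcctttacca

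Heart held the most such sites, 76, followed by small intestine with 52, liver with 49, muscle with 44, lung with 13 and spleen with 7. As a share of all sites with 20 reads or more in the column, they made up 4.07% for heart, 3.23% for small intestine, 3.15% for liver, 2.51% for muscle, 1.10% for lung and 0.704% for spleen. Summed coverage over listed sites ran from 261562 reads in lung and 304426 in spleen to 4683960 in muscle. These counts moved with depth. After all columns were scaled down to the depth of spleen, 338 sites met the rule, of which 90 were among the 241, and the counts became 73 in liver, 64 in lung, 61 in muscle, 50 in heart, 46 in small intestine and 44 in spleen, so that heart no longer held the most. With lung and spleen left out, a choice made once values were known, 269 sites had 20 reads in 1 tissue alone and 221 of them were the same sites.

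The threshold chose the members, so values on both sides of it are given without a test. The coverage was 20 reads at 6 sites and under 25 at 22, and the median was 53 reads. In the other tissues, 147 of the 241 sites (61.0%) had no listed reads, which may stand for fewer than 10, and 94 had 10 to 19 reads in at least 1. At 8 sites the second tissue had 19 reads. Among those, the 4 adjacent Pkd1 sites had 94 to 96 reads in heart and 19 in muscle, while Pkd1 at 24565322 had 23 reads in lung and 19 in heart. The sites with 20 reads were those of Dnal1 and Gm5640 in heart, Rps21 in liver, Gstm6 and Clcn3 in small intestine and Dtx2 in spleen.

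Levels were next described by covered tissue. Liver sites had a median level of 16.7% (quartiles 11.8 to 33.3) and muscle sites 16.1% (11.9 to 23.3). Small intestine followed with 15.4% (8.48 to 26.5) and heart with 14.3% (11.2 to 20.9). Lung sites had a median of 3.85% (0 to 11.3) and spleen sites 0% (0 to 2.99). The first 4 medians lie close together under this rule. With the other 5 tissues blank, liver had 27% (30 sites), against 16% in heart, 16.3% in muscle and 15.7% in small intestine, and with a minimum of 10 reads liver had 25.4% (31 sites). By comparison, sites covered both there and elsewhere had medians of 5.99% for liver, 11.6% for muscle, 3.89% for small intestine, 10.8% for heart, 1.89% for lung and 1.18% for spleen. In heart 64 of 76 sites reached a level of 10%, where 57.9% of all sites with 20 reads did. Muscle had 38 of 44 against 61.3% of all, and liver 42 of 49 against 36.5%. Small intestine had 37 of 52 against 24.2%, lung 4 of 13 against 13.7%, and spleen 1 of 7 against 12.2%. Over the 6 columns 186 of the 241 reached 10%, against 37.9% of all covered values. The authors called 154 of the 241, against 32.6% of all covered values. These were 53 heart sites (52.4% of all covered there were called), 31 muscle sites (53.0%), 35 liver sites (31.5%), 30 small intestine sites (18.5%), 4 lung sites (11.1%) and 1 spleen site (9.66%). A site covered in 1 tissue may be listed because of its level there, so no test is given for these shares.

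**Figure D1:**
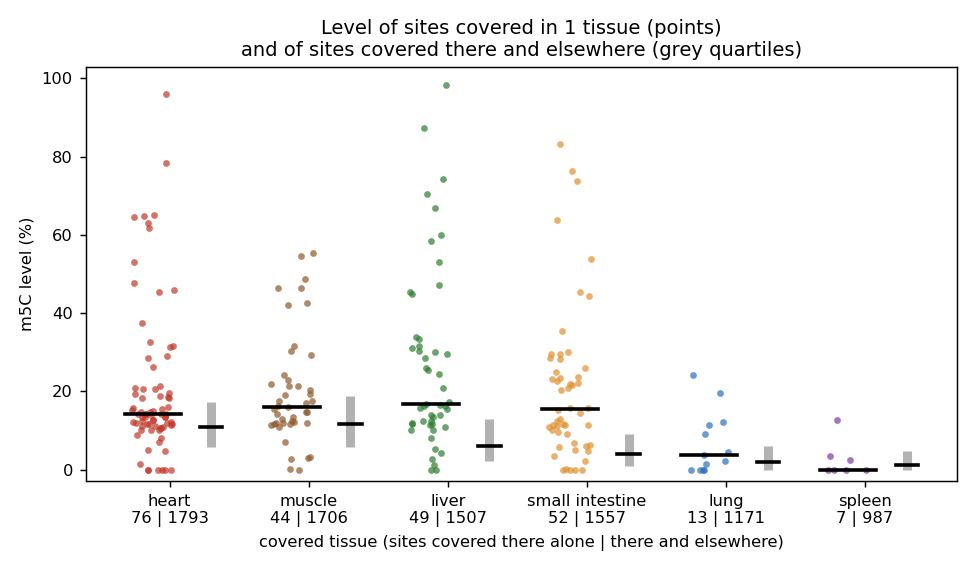
m5C level in percent of each site covered in 1 tissue (points, with a bar at the median) and, in grey, the quartiles and median of sites covered in that tissue and at least 1 other. Medians of the points are 14.3% to 16.7% in heart, muscle, liver and small intestine, and 3.85% and 0% in lung and spleen.

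In liver and small intestine the share at 10% was lower with each further covering tissue, which was not so in the other 4 columns. In liver it was 85.7% with 1 tissue, 63.1% with 2, 45.3% with 3, 42.4% with 4, 32.5% with 5 and 28.7% with 6. In small intestine it went from 71.2% through 56.6%, 36.6%, 31.6% and 19.2% to 14.5%. Heart and muscle started at 84.2% and 86.4% and lay between 50.4% and 70.4% beyond 1 tissue. Heart rose again from 52.4% with 4 tissues to 56.4% with 6, and muscle from 50.4% to 63.3%. Lung had 30.8% with 1 tissue and 55.9% with 2, from 13 and 34 sites. Spleen had 14.3% with 1 tissue, 28.6% with 3 and 11.5% with 6. A site may be listed because of its level in any covered tissue, which would by itself lower such a share as tissues are added. The fall in liver and small intestine is therefore a description and was not tested. Among sites the authors called in the same column, liver sites covered there alone had a median of 28.6% (35 sites) against 15.9% for the other 455, and small intestine 21.8% (30 sites) against 17.3% for 267. Heart had 14.6% against 15.9% and muscle 17.4% against 16.7%. That restriction was set once values were known, and the differences were not tested.

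**Figure D2:**
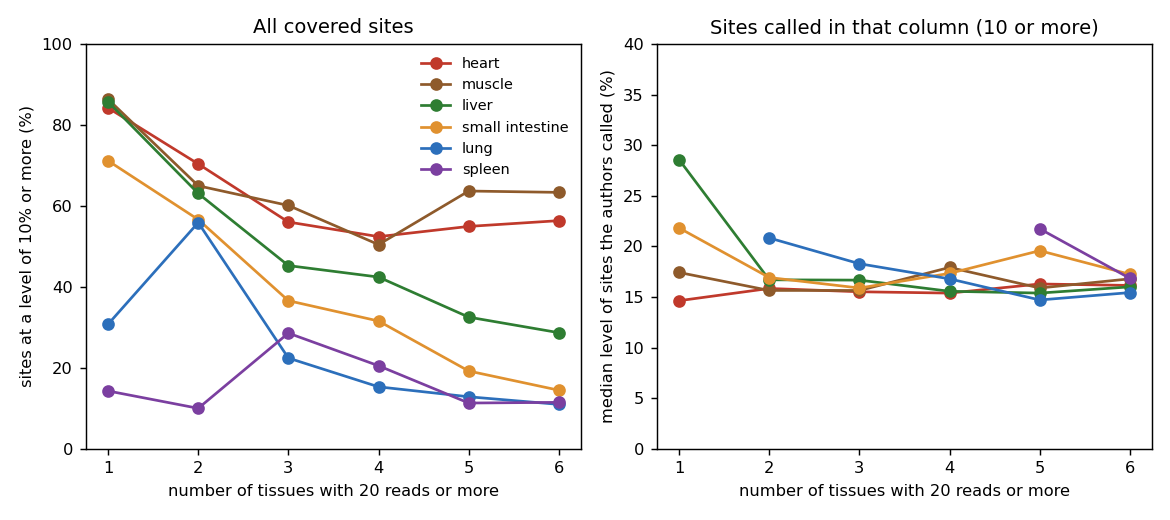
Left, percent of covered sites at a level of 10% or more against the number of tissues with 20 reads or more, 1 line per tissue column. Right, the median level in percent of the sites the authors called in that column, drawn where at least 10 were called. The left lines of liver and small intestine fall from 85.7% and 71.2% to 28.7% and 14.5%.

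Sites were next set against lists of cell type genes, which were chosen with earlier results of these data known. At 1000 reads or more there were 28 sites in 24 genes. Muscle had 14 of these sites, liver 7, small intestine 4 and heart 3. Genes of the cell type lists held 15 of the 28, which were 7 in muscle, 6 in liver, 1 in small intestine and 1 in heart. At 20 to 49 reads there were 112 sites, of which 2 lay in listed genes. List genes were not counted among more widely covered sites of these depths, so no background share is given. Of the skeletal muscle list 9 of 34 sites were covered in 1 tissue, 8 in muscle and 1 in heart. Of the hepatocyte list 9 of 13 were, all in liver, and of the intestinal epithelium list 4 of 9, all in small intestine. Of the cardiac list 1 of 13 was, in heart, and of the immune and spleen list 1 of 3, in spleen. The lung epithelium, erythroid, adipocyte and smooth muscle lists had none. Over all 2498 cytosines of the deposited table the share covered in 1 tissue was 9.65%, and these shares were not tested. A level of 10% was reached at 9 of 9 skeletal muscle, 8 of 9 hepatocyte and 4 of 4 intestinal sites. The share over all sites covered in 1 tissue was 77.2%. It was 86.4% in muscle, 85.7% in liver and 71.2% in small intestine, and the differences were not tested. The skeletal muscle sites lay in 6 genes and the hepatocyte sites in 7, so not all are separate instances. The intestinal sites were those of Defa21, Defa22 and Defa24, copies within 1 gene family, and of Krt19. The Krt19 site lies 2497 nt outside the span of its gene.

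The tissue labels were checked against reads at marker genes. Skeletal muscle list genes took 39.7% of reads in the muscle column and 0.612% in heart, hepatocyte genes 48.8% in liver, and intestinal genes 2.01% in small intestine. Cardiac genes took 1.02% in heart, where smooth muscle and fibroblast genes took 1.29%. Lung epithelium genes took 0.463% in lung, from 2 listed sites, where skeletal muscle genes took 0.418%. Smooth muscle and fibroblast genes took 0.845% in lung, and endothelium and mesothelium genes 0.653%, both above the lung epithelium list. Immune genes took 0.342% in spleen, from 3 listed sites, where erythroid genes took 0.492%. Small intestine also had 11.9% of its reads at 3 sites of pancreatic acinar genes. Ctrl, a chymotrypsin-like protease, alone took 10.5% of all small intestine reads. Their part in the results was not tested.

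Of the 14 muscle sites with 1000 reads or more, 7 lay in genes of the skeletal muscle list. Cacna1s, the voltage-sensing calcium channel of the muscle membrane, had 54.6% of 11165 reads at chromosome 1 position 136070728 (95% interval 53.6 to 55.5) and no reads listed elsewhere. Its site at 136119364 gave 22.9% from 3326 muscle reads, and spleen had 0 unconverted among 10. The 2 channel sites differ by more than their counting intervals within the same tissue. Ryr1, the calcium release channel that Cacna1s opens, had 21.4% of 4175 reads at 29094125, 19.3% of 5888 at 29020088 and 17.4% of 6521 at 29020078 on chromosome 7, again in muscle alone. The last pair lies 10 nt apart and was not called by the authors. Jsrp1, a protein of the junctional sarcoplasmic reticulum, had 17% of 14140 reads in muscle and 11 reads in heart, and Lrrc30, a leucine-rich repeat gene, 17.4% of 9212. Sypl2, known as mitsugumin 29 of the triad junction, had 21.4% of 1842.

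The other muscle sites named here lay outside the list, apart from that of Eno3. The potassium channel genes Kcnc1, Kcnma1 and Kcnc4 had 41.9% of 124, 42.7% of 157 and 20.3% of 2103 reads. Eno3, the muscle enolase of glycolysis, had 31.6% of 133, and Prkag3, a regulatory subunit of AMP-activated kinase in muscle, 13.4% of 2642. Phkg1, the catalytic subunit of phosphorylase kinase, had 11.8% of 51. Slc25a12, a mitochondrial aspartate-glutamate carrier, had the highest level in muscle, 55.3% of 47 reads (41.2 to 68.6). The pseudogene Gm8055, Adcy2 and Cdsn followed at 48.8%, 46.5% and 46.3%. Among the lowest were Pttg1ip with 0 of 66 reads, which allows up to 4.55%, and Lgi2 with 2.78% of 36.

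By number of reads, liver sites were led by plasma proteins and enzymes made in hepatocytes. Of the 49 liver sites 9 lay in genes of the hepatocyte list. Serpina3k, a protease inhibitor of plasma, had 31.5% of 57789 reads (31.2 to 31.9), Ces1c, a secreted carboxylesterase, 13.9% of 53551, and Plg, plasminogen, 11.5% of 56566, with none listed in the other 5 tissues. Itih2, an inter-alpha-trypsin inhibitor chain, had 30.3% of 1873 and Serpinf2, the plasmin inhibitor, 17.2% of 297. Cyp2d9, a cytochrome P450, stayed at 5.19% of 6341. Saa1, an acute phase protein, had 31.2% of 340 and Apoc4, an apolipoprotein, 16.7% of 90. Members of serpin, Ces1 and Cyp2d families have close relatives in the genome, and the sources used here do not say how reads were divided among them.

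Ass1, the urea cycle enzyme that makes argininosuccinate, had 3 sites in liver and in no other tissue. The site 54 nt from the annotated gene start had 10.9% of 7365 reads (10.2 to 11.6). The sites at 31500828 and 31500830, more than 30 kb into the gene, had 28.6% of 56 (18.4 to 41.5) and 66.9% of 266 (61.1 to 72.3). The 3 intervals do not overlap, and the 2 neighbours 2 nt apart differ from each other. The highest liver levels belonged to Hebp1 with 98.2% of 167 reads (94.9 to 99.4), 2 sites of the major urinary protein pseudogene Mup-ps21 with 87.2% of 125 and 70.5% of 2236, and Scp2-ps2, a pseudogene, with 74.2% of 66. At the other end Ltn1 and Usp32 had no unconverted read among 43 and 36, which allows up to 6.98% and 8.33%, and Arsg had 1.18% of 85.

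In small intestine all 7 listed alpha-defensin sites were covered there and nowhere else. Alpha-defensins are antimicrobial peptides that Paneth cells release into the crypts. Defa24 had 22.1% of 3324 reads (20.8 to 23.6), Defa23 14.5% of 488 (11.7 to 18) and Defa3 11.2% of 160 (7.24 to 17.1). Defa22 had 11.3% of 124, Defa21 12.3% of 122, Defa36 28.4% of 74 (19.4 to 39.5) and Defa28 20.4% of 49. The interval of Defa24 lies above those of Defa23, Defa22, Defa21 and Defa3 and overlaps those of Defa36 and Defa28. The sites lie 22 to 24 nt from the annotated gene start in Defa21, Defa22, Defa23 and Defa24. With the shared letters shown above, reads of 1 copy can map to another, so the split among copies is uncertain. Counting the family once left 235 sites in all.

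Other small intestine genes ranged widely in depth and level. Itln1, the lectin intelectin of intestinal epithelium, had 21.9% of 20348 reads (21.3 to 22.5). Akp3, an intestinal alkaline phosphatase, had the deepest of the 241 sites and one of the lowest levels, 0.0460% of 84747 reads (0.0337 to 0.0629). Abhd11os, a non-coding RNA, had 29.6% of 3184 and Psd 15.2% of 683. Drug-metabolising cytochromes were present with Cyp2c65 at 20.8% of 72 and 11.3% of 62, and Cyp2c55 at 15.6% of 32. Muc6, a secreted mucin, had 15.7% of 51. The highest levels belonged to Itgb4, the integrin of hemidesmosomes, with 83.2% of 137 (76.1 to 88.5), Atxn7 with 76.3% of 38, Krt19, a keratin of simple epithelium, with 73.7% of 38, the pseudogene Gm8989 with 63.7% of 124 and Ncapd2 with 53.8% of 26. No unconverted read was seen among 124 in Tprn, 67 in Vstm2l, 58 in Specc1 and 36 in Piwil4.

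Heart had many sites and few deep ones. Corin, the heart protease that activates natriuretic peptide, had 64.9% of 2844 reads (63.1 to 66.6), and lung had 10 reads there with a level of 50%. Mhrt, a cardiac non-coding RNA transcribed opposite to Myh7, had 14.3% of 3119 in heart and 0 of 14 in lung. The sources used here do not say whether counting used strand, so reads of the opposite gene cannot be told apart. Tnni3k, a cardiac kinase, had 10.1% of 2271 and Rasl10b 11.8% of 982. Lmod2, a leiomodin of the sarcomere's thin filament, had 15.4% of 52, Kcnd3, a potassium channel of the cardiac action potential, 10.5% of 38, and Msln, a marker of mesothelium, 15% of 60. The mitochondrial methionine tRNA gene mt-Tm had 18.7% of 91 at position 3875.

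Apart from Corin, which ranked 4th, the 6 highest heart levels rested on few reads. They were 96.0% of 25 reads in 1810043G02Rik (80.5 to 99.3), 78.3% of 23 and 63.0% of 27 at the Hdlbp pair, and 65.2% of 66 and 64.6% of 65 at a pair in Gm11410. The 1810043G02Rik and Hdlbp sites were not called by the authors. No unconverted read was seen at 6 heart sites of 20 to 45 reads, in Ppp1r9a, Ptpdc1, 1700017B05Rik, Gm5640 and at 2 neighbours in Bahcc1. The 45 reads of Ppp1r9a allow up to 6.67% and the 20 of Gm5640 up to 15%.

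Lung and spleen added few sites. In lung the levels of 10% or more were 24.1% of 54 reads in Gas7, 19.4% of 36 in Lama3, a laminin chain of epithelial basement membrane, 12.1% of 33 in Pla2g4f and 11.3% of 53 in Trpc6, a calcium-permeable channel. Tspan11 had the most reads, 100, with a level of 9%. Genes of cilia and flagella, Cfap52 and Cfap43, had 2.22% of 45 and 0 of 46, and Cplx2 and Thsd4 had 0 of 33 and 0 of 26. In spleen Ms4a1, the B-cell antigen CD20, had 12.7% of 63 reads (6.58 to 23.1), Gp5, a platelet glycoprotein, 2.53% of 79, and Abcg4, a membrane transporter, 3.45% of 29. Ran, Dtx2, Myo5a and Trpm2 had no unconverted read among 20 to 46. Intervals of this width leave levels around 10% undetectable at many of these sites.

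**Figure D3:**
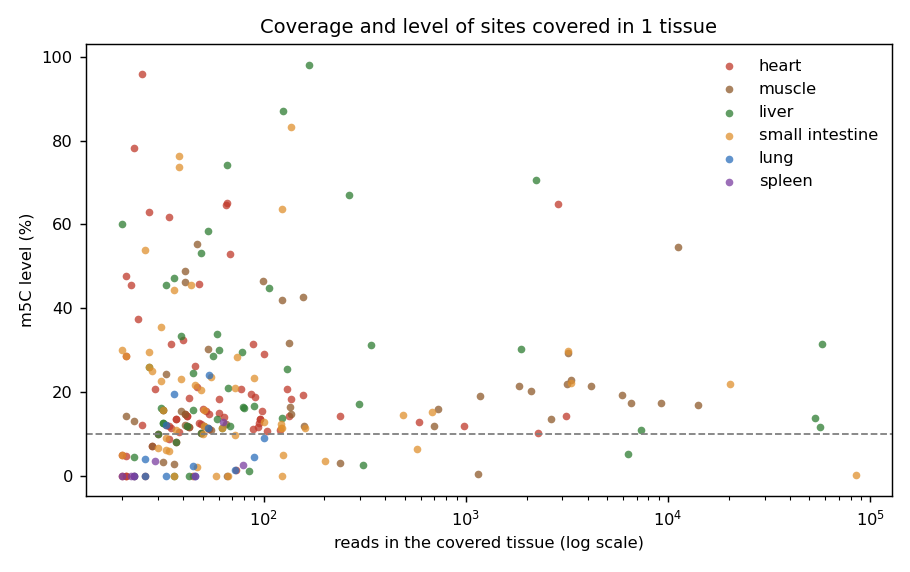
m5C level in percent against reads in the covered tissue on a log scale, 1 point per site, coloured by tissue, with a dashed line at 10%. The sites above 1000 reads are 28, most in muscle and liver, and 23 sites lie at 50% or above, 10 of them with under 50 reads.

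Gene kinds differed from those of more widely covered sites in their shares. Protein-coding genes held 209 of the 241 (86.7%), against 94.7% of the 1916 sites covered in 2 or more tissues. Long non-coding RNA genes held 14 (5.81%, against 1.30%) and pseudogenes 11 (4.56%, against 1.83%), while 7 sites, under 6 names, had no RefSeq match. Of the non-coding RNA sites 10 were in heart, and 13 of 14 reached 10%, with a median of 14.5%. Of all 241 sites 77.2% reached 10%, and their median was also 14.5%. Among the heart sites 84.2% reached 10%. Some non-coding genes held several of the 14. They included 4921531C22Rik at 47.6% of 21 reads, Crnde at 45.5% of 22, A530095I07Rik at 20.8% of 77, Gm12519 at 16% of 50 and 10.8% of 120, Gm17029 at 11.6% of 43, and 3 sites of A630072M18Rik within 5 nt of each other at 10.2%, 12.2% and 12.5%. In muscle Hoxd3os1 had 14.7% of 136 and Gm11523 14.6% of 41. The pseudogene sites had a median of 25.4%, all 11 at 10% or more. They were spread over liver with 5, small intestine with 3, muscle with 2 and heart with 1. The liver sites include 2 of Mup-ps21 that lie 7 nt apart. Those not yet given were Gm7298 with 25.4% of 130, Gm11539 with 23.3% of 90, Rps18-ps3 with 21.7% of 46, Nat8b-ps with 15.6% of 45, Gm7117 with 14.3% of 42 and Gm9061 with 10.9% of 55. A pseudogene shares sequence with its parent gene, so reads of the parent can map to it, and base differences between the copies were not examined here. These shares were not tested.

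Position in the gene was similar to that of other sites. In protein-coding genes of at least 10 kb, 29 of 160 sites (18.1%) lay within 1 kb of the 5′ end, 109 (68.1%) elsewhere and 22 (13.8%) within 1 kb of the 3′ end. For sites in more tissues the shares were 16.8%, 65.5% and 17.7%. Median levels were 13%, 13.6% and 11.7% in that order. Outside the RefSeq span of the gene named in the table lay 9 sites with a matched name, and their median level was 47.2% against 14.3% for the 225 inside. The outside sites include Hebp1, 29663 nt away from its gene, Scp2-ps2, 9985 nt away, and Krt19, Gcc1, and Slc25a12, which lie 2497, 2217 and 1201 nt away, all at 47.2% or more. The other 4 were lower, with 4.35% in A930011G23Rik, the farthest at 78917 nt, 8.11% in Cox4i1 at 1 nt, 11.9% in Prdx1 at 490 nt and 12.9% in Adat3 at 1069 nt. For these the gene name given may not be the source of the reads.

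Most genes had a single such site, 195 of 215, and 20 had 2 or more. Ass1, Ryr1, A630072M18Rik and Pkd1 had 3 or more. In 31 genes another listed site was not covered in 1 tissue alone, and 35 of the 241 sites had such a companion with 20 reads in the same column. The level was higher than at the nearest companion at 19 of them and lower at 15, with a median difference of 1.70 points. In Rps21, a ribosomal protein gene, the site at 180257784 had 20 reads in liver and 60%, while the site 19 nt further on had 24675 reads in liver and 3.14%. The latter was covered in all 6 tissues, by 7445 reads or more. In Cacna1s a site 556 nt from 136119364 had 43.2% of 17756 reads in muscle and was covered in 4 tissues.

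Mknk2, which encodes a kinase that phosphorylates the cap-binding factor eIF4E, shows such a border in steps. Its 7 sites near the annotated start spanned 81 nt, and heart coverage fell toward the start, through 1318, 1056, 778, 516, 287, 104 and 54 reads. The first 2 sites were covered in 6 tissues, the next 3 in 4, and the last 2 in heart alone, where muscle had 19 reads at the first of them. Heart levels stayed between 8.36% and 14.8% over the whole stretch, and the intervals of the last 2, 6.01 to 18 and 7.70 to 26.6, include each of the others. In Pkd1, the gene of polycystin-1, 4 adjacent cytosines from 24565264 to 24565267 had 13.5%, 12.6%, 11.7% and 13.5% in heart. In muscle none of 19 reads was unconverted at any of them, and liver had 21.4% of 14 reads at the first and last. Such neighbours are read in the same molecules. Sites with another listed site within 10 nt numbered 32 (13.3%, against 11.8% of sites in more tissues), and their median level was 14.7% against 14.5% without a neighbour.

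**Figure D4:**
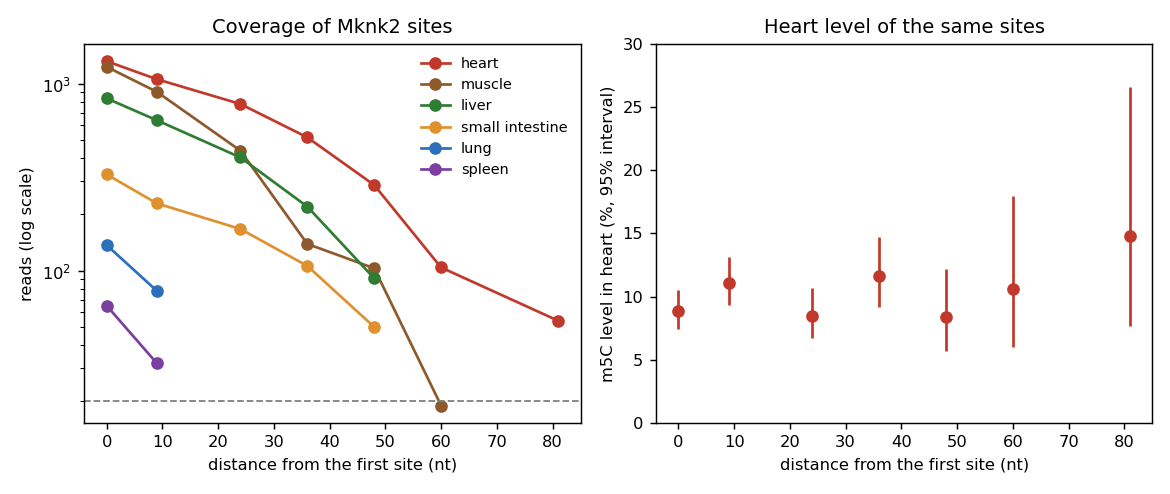
Left, reads on a log scale at 7 Mknk2 sites against the distance in nt from the first, 1 line per tissue, with a dashed line at 20 reads. Right, heart m5C level in percent with 95% Wilson intervals at the same sites. Coverage in heart falls from 1318 to 54 reads while the level stays between 8.36% and 14.8%.

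For 94 of the 241 sites a second tissue had 10 to 19 reads, which gave 144 comparisons of level with the covered tissue. The covered tissue had the higher level in 96, the lower in 30 and the same in 18, with a median difference of 6.70 points. Its level may have led to the listing, so this balance is a description. Adjacent cytosines such as those of Pkd1 enter it one by one, so the 144 are not separate instances. Reads with and without conversion were compared by Fisher's exact test, two-sided, at each listed site with 10 reads in both tissues of a pair, with Benjamini-Hochberg adjustment over 20544 tests, and a difference was called at an adjusted p under 0.05 and 10 points. It called 3 of the 144 (2.08%), near the 3% called among all tests with a tissue at 10 to 19 reads, and 20.3% were called over all tests. At an unadjusted p under 0.05 there were 7. The chi-square test called 1.

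Rps21 had 60% of 20 reads in liver and 0 of 15 in spleen (Fisher's exact adjusted p = 0.000831), with 54.5% of 11 in heart and 46.7% of 15 in small intestine. Spleen was at 0, and the 3 other tissues with reads were at 46.7% or more. Rad51d, a recombination protein, was lower in its covered tissue, with 8.11% of 37 reads in liver and 38.9% of 18 in heart (Fisher's exact adjusted p = 0.0300). Pkd1 at 24565322 had 0 of 23 in lung and 26.3% of 19 in heart (Fisher's exact adjusted p = 0.0412). The authors made no m5C call at these 3 sites in any tissue. Below the call were Ptpru with 4.44% of 90 in lung and 27.3% of 11 in heart (Fisher's exact adjusted p = 0.0741) and Rabgap1l with 53.1% of 49 in liver and 20% of 15 in lung (Fisher's exact adjusted p = 0.0975). Where heart was covered and muscle had reads, the heart level was higher at 14 of 20 sites and lower at 5, and none was called. The 14 include the 4 adjacent Pkd1 cytosines, which are not separate instances. Heart was higher at 13 of 14 sites against lung, 6 of 6 against spleen, 4 of 10 against liver and 4 of 8 against small intestine. The 13 and the 6 each include the same 4 Pkd1 cytosines. A heart site may be listed because of its heart level, so these counts are a description. Among the sites compared with muscle, Adcy1 had 32.5% of 40 reads in heart and 0 of 10 in muscle (Fisher's exact adjusted p = 0.118). A 0 of 10 has an interval reaching 27.8%, so differences of this size were often not detectable.

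**Figure D5:**
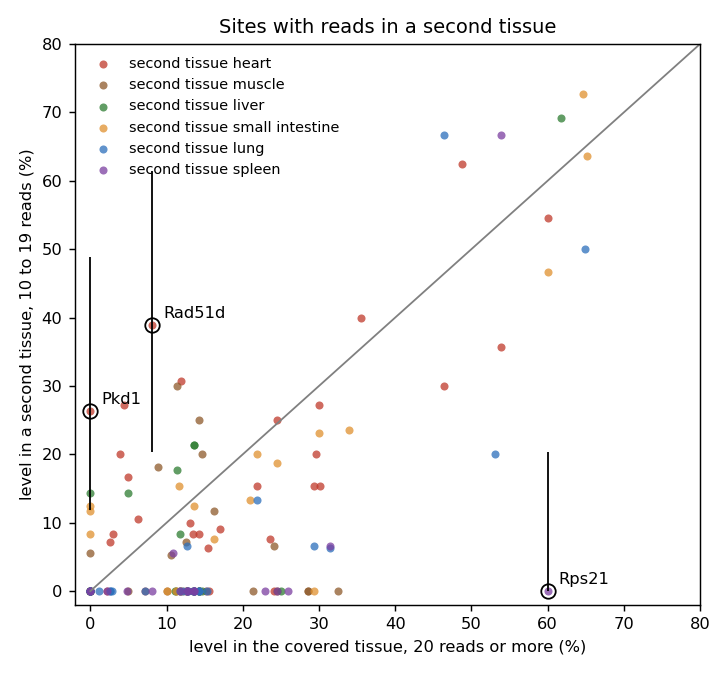
Level in percent in a second tissue with 10 to 19 reads against the level in the covered tissue, 144 comparisons coloured by second tissue, with the line of equality. Circles with 95% Wilson intervals mark the 3 called differences, of which Rps21 lies below the line and Rad51d and Pkd1 above it.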

How the data were processed

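Bisulfite-converted polyadenylated RNA of 6 tissues was sequenced from 12 libraries. Per the submitters' processing notes the build was mm10 and the tools included HISAT2 2.10 and bcl2fastq 2.17; no source used here gives the filters on sites and reads. Per the file headers, the authors' deposited coverage is a count of reads (cells start at 10), the level is a fraction, shown here as percent, and the p-values and site calls are the authors' own. Unconverted reads were recovered as level times coverage, within 0.000179 of a whole number in 9926 cells. Covered means at least 20 reads. Intervals are 95% Wilson intervals, and the limit for a count of 0 is 3 reads over the coverage; both cover counting error only. Since each tissue is 1 set of columns, tests compare columns, not animals. Gene kinds and spans came from RefSeq on GRCm38.p6, where the names of 234 of the 241 sites matched. Sites named are the 5 highest, 3 lowest and 3 most covered per tissue, sites in listed genes, genes with 3 or more sites, non-coding sites of at least 10%, called pairs with the smallest p, and sites at the threshold; other named sites were chosen after their values were seen. Some sites that meet the rule are not reported here. Members and gene lists were chosen with earlier results of these data known. On simulated data the pair test with a tissue at 10 to 19 reads recovered 0 of 27 differences of 20 points. It recovered 12 of 24 of 40 points and 32 of 37 of 60 points, and falsely called 1 of 2877. Simulated differences were placed in the muscle column alone, and fewer tests were called than in the data. The adjusted cutoff was thus stricter there, so these rates are not those of the test on the data. Computations used Python 3.11.15 with SciPy 1.17.1 and pandas 2.3.3.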

Additional observations from a re-analysis of the deposited data

How the results depend on the processing

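Levels and shares were limited by depth: cells under 10 reads are blank, and lung and spleen sites had 45 and 29 reads at the median. Requiring the other 5 tissues to be blank left 41 heart, 29 muscle, 30 liver, 7 lung and 2 spleen sites, 147 in all, with an overall median level of 16.1%. Scaling to the depth of spleen gave 64 lung, 50 heart and 44 spleen sites, with median levels of 11.7% for heart, 10.9% for liver, 11.2% for small intestine and 10% overall. A coverage minimum of 50 gave 80 muscle sites, an overall median of 13%, a small intestine median of 10% with 51.6% at the 10% level, and 60% at that level among 5 spleen sites. A minimum of 10 gave 31 liver sites. At a level of 20% the shares were 46.9% for liver, 46.2% for small intestine, 36.4% for muscle, 28.9% for heart, 7.69% for lung, 0% for spleen and 35.7% overall. Sites the authors called, a restriction set once values were known, numbered 30 in small intestine, 4 in lung, 1 in spleen and 154 in all, with medians of 15.8% in lung and 17.2% overall. The chi-square test called 1 pair. The cause of these shifts was not tested beyond the construction of each alternative. The remaining 124 values stayed within 1.5 times the count or within the 95% interval of the value. No paired analysis was possible because each tissue has 1 set of columns that combines its libraries, and for the same reason no library could be left out.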

Other observations

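At a level of 10% or more, 32 of the 241 sites were not called by the authors, and each of the 32 has a deposited p-value of 1. Most had few reads, but the Neurl1a neighbours in muscle had 29.4% of 3194 and 21.9% of 3169 reads, the Ryr1 sites at 29020078 and 29020088 had 1135 unconverted reads each, and Ass1 at 31470324 had 10.9% of 7365. Neurl1a also had 13 reads in heart at 15.4% at both positions. Lung had 15 reads at each, with 6.67% at 47257448 and 13.3% at 47257447. Small intestine had 10 reads at each, with 0% at 47257448 and 20% at 47257447. A further 341 listed sites had under 20 reads in every tissue, and the authors called none of them.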
